A study of Mus musculus with 6 samples.

Results

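The 10 genes examined here belong to the interleukin-6 (IL-6) family and its STAT3 pathway, measured in hepatic CD11c+ cells of Atg5 CD11cKO and WT mice: the ligands Il6, Osm and Lif, the receptor chains Il6ra, Osmr, Lifr and Il6st, the kinase Jak2, the transcription factor Stat3 and the inhibitor Socs3. They were taken by gene symbol from a table of 31426 genes, and all 10 were present and passed the filter on low counts. The RNA-seq libraries were 3 of Atg5 CD11cKO mice, numbered 25, 26 and 27, and 3 of WT mice, numbered 21, 22 and 23. Both groups were male, had the C57BL/6 background and received a high-fat diet (HFD) for 14 weeks, starting at an age of 4 to 8 weeks. In Atg5 CD11cKO mice a floxed Atg5 allele is deleted by a Cre recombinase under the Itgax (CD11c) promoter, so deletion follows CD11c and is not limited to 1 cell type. The WT controls were littermates with the floxed allele. The cells were pulled from collagenase-digested livers with beads against CD11c, which dendritic cells and many liver macrophages carry. The sources tie no library to a mouse, so the p-values measure the spread between libraries, which may be technical.

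IL-6 family cytokines share the signalling chain gp130, encoded by Il6st, and each ligand adds a chain of its own: IL-6 binds the IL-6 receptor alpha chain, leukaemia inhibitory factor (LIF) binds the LIF receptor, and oncostatin M binds the oncostatin M receptor, with mouse oncostatin M also able to use the LIF receptor weakly. The bound receptor activates JAK kinases, which phosphorylate STAT3, and STAT3 switches on Socs3, whose product binds gp130 and JAKs and shuts the signal down. In the liver, IL-6 made by macrophages drives the acute-phase response of hepatocytes and favours regeneration.

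The library labelled WT 23 did not resemble the other WT libraries. Atg5, the deleted gene, had counts-per-million (CPM) values of 21.3, 21.0 and 20.8 in Atg5 CD11cKO 25, 26 and 27, against 54.0 and 49.8 CPM in WT 21 and WT 22 and 22.1 CPM in WT 23. Counts were made per gene, so reads outside the deleted exon still add to Atg5. Itgax, which encodes CD11c, was high in every library, at 464 to 492 CPM in Atg5 CD11cKO and 432 to 472 CPM in WT. Across genes, log2 CPM in WT 23 had a correlation of 0.991 to 0.992 with the Atg5 CD11cKO libraries, of 0.961 with WT 21 and of 0.963 with WT 22, while WT 21 and WT 22 correlated at 0.987 with each other. No pair of libraries agreed within sampling noise (chi-square per degree of freedom 6.30 or more), so each was counted as 1 sample. Depth was similar, at 31103044 to 32699529 counts in Atg5 CD11cKO and 31064570 to 34034675 counts in WT libraries. The comparison of each of the 10 genes is therefore given on the 6 libraries as labelled and again without the library labelled WT 23. That library was doubted because of its values, which the p-values without it do not allow for. Where another library is left out as well, the WT group can be down to 1 library, and edgeR then assumes that it varies as the Atg5 CD11cKO libraries do.

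In that second comparison, the Atg5 CD11cKO libraries had less Il6, Lif, Lifr and Jak2 and more Osm, Il6ra, Il6st and Socs3 than WT 21 and WT 22. The largest called differences were in the ligands: Il6 was 4.58-fold lower and Osm 2.27-fold higher. Of the 10 genes, 8 passed an adjusted p of 0.05 (edgeR quasi-likelihood test, Benjamini-Hochberg adjustment over 18241 genes), 4 higher and 4 lower, and DESeq2 called the same numbers in each direction. Among all genes tested, 31.0% passed, 15.9% higher and 15.1% lower, and among the 14276 genes with a mean of at least 1 CPM, 37.2% passed. The groups did not overlap for 9 of the 10, where 55.0% of all genes tested did not overlap. The median log2 fold change of the 10 genes was 0.11 and their median absolute log2 fold change 0.73, against -0.014 and 0.349 over all genes tested.

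With the 6 libraries as labelled, no gene of the 10 passed in edgeR, where 0% of 17499 genes passed in either direction, nor in DESeq2, where 1.95% passed. At an unadjusted p under 0.05 edgeR had 4 of the 10 (Il6, Lif, Lifr and Jak2), beside 14.4% of all genes tested. Their median log2 fold change was 0.04 and their median absolute log2 fold change 0.33, against -0.00858 and 0.242 over all genes. The groups stayed apart for 1 of the 10, Lif, beside 18.3% of all genes. For all 10 genes the library labelled WT 23 lay nearer the Atg5 CD11cKO mean than the mean of WT 21 and WT 22, and for 5 (Il6, Osm, Il6ra, Il6st and Jak2) it lay inside the range of the Atg5 CD11cKO libraries.

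**Figure D1:**
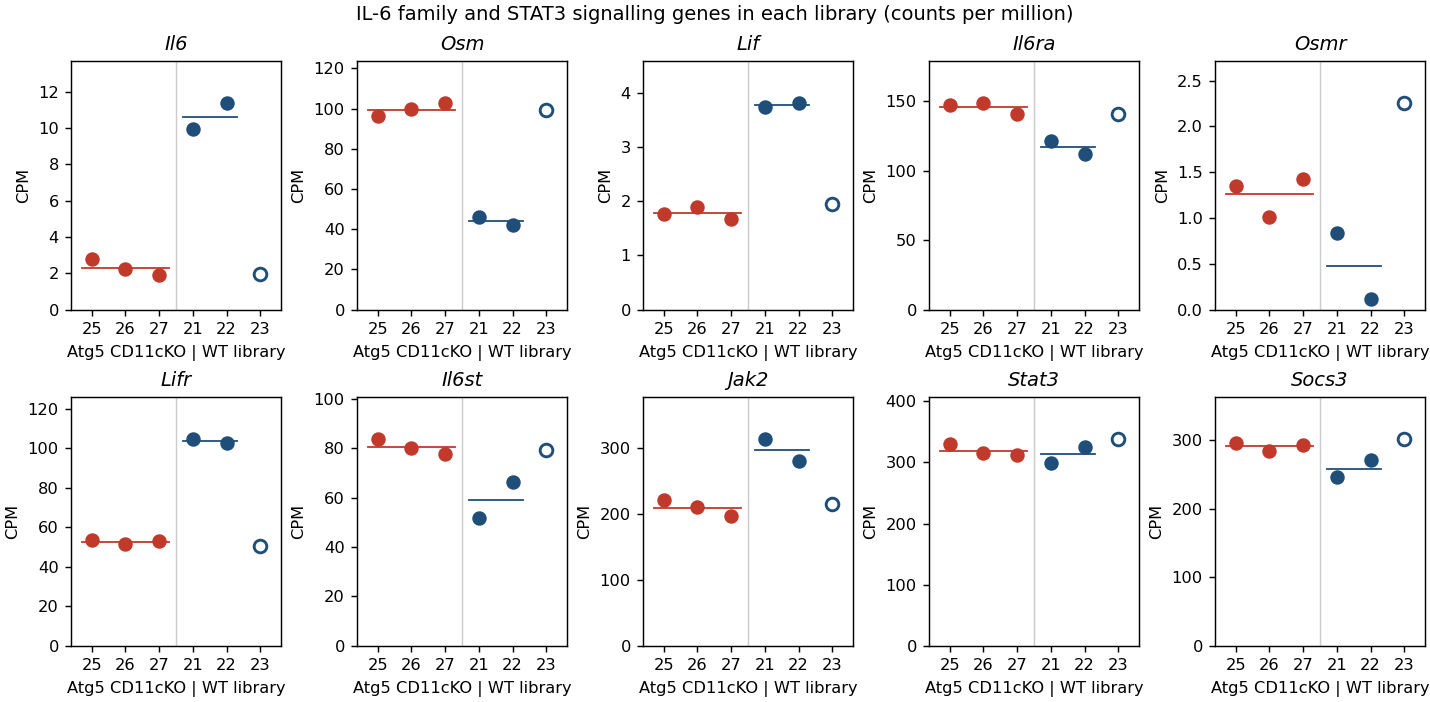
CPM (y axes, linear, from 0) of the 10 genes in each library (x axes), with red points for Atg5 CD11cKO 25, 26 and 27, filled blue points for WT 21 and WT 22 and an open blue point for the library labelled WT 23. Horizontal lines are the means of the filled points; the open point lies nearer the Atg5 CD11cKO mean in all 10 panels.

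The promoters of the ligands Il6 and Lif and of the feedback gene Socs3 are shown first because each holds a match to a searched motif ahead of its start. Windows from 250 bases before to 50 bases after the start were taken from RefSeq (GRCm38.p6), where 9 of the 10 genes had one. The motifs searched, on both strands, were TTCNNNGAA, which STAT dimers bind, its stricter form TTCCNGGAA, the cAMP response element TGACGTCA and the AP-1 element TGANTCA. They occur in 8.29%, 1.15%, 1.79% and 7.81% of 32817 windows of the same length. The windows of Il6, Lif and Osmr each held 1 AP-1 match, that of Socs3 held 1 STAT match, and no other match was found. The stretches below are gene-sense, 5′ to 3′, stop before the next annotated exon base of the gene, and show the matches in capitals. They lie at chr5:30012864-30013113 (plus strand) for Il6, chr11:4257318-4257556 (plus strand) for Lif and chr11:117969452-117969616 (minus strand) for Socs3, which lies inside the annotated gene, between exons.
Il6: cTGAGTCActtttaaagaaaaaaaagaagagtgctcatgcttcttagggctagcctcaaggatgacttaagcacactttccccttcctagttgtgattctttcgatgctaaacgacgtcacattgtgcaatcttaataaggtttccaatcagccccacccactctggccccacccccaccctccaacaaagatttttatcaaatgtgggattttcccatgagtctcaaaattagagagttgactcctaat
Lif: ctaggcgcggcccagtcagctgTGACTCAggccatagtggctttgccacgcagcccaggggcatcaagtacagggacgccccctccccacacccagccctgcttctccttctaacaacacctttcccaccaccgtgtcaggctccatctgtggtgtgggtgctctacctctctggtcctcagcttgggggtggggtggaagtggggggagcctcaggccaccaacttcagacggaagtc
Socs3: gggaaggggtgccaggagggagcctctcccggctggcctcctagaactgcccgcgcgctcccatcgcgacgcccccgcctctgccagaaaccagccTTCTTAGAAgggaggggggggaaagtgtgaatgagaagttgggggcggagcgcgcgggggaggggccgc
The capitals read TGAGTCA at 249 bases before the Il6 start, TGACTCA at 228 bases before the Lif start and TTCTTAGAA at 154 bases before the RefSeq start used for Socs3. A match is a stretch of letters and was not measured here as a bound site. The AP-1 match of Osmr, TGATTCA, begins at base 4, counting its start as base 1, and is not in a printed stretch. Of the genes with an AP-1 match, Il6 and Lif had negative and Osmr a positive log2 fold change without the library labelled WT 23, the last not past the threshold.

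Il6, the founding ligand of the family, is on chromosome 5 (mm10, 30013114 to 30019981, plus strand). It had 2.79, 2.23 and 1.92 CPM in Atg5 CD11cKO 25, 26 and 27, against 9.92 and 11.4 CPM in WT 21 and WT 22 and 1.94 CPM in the library labelled WT 23. These CPM rest on 61 to 87 counts in Atg5 CD11cKO libraries, 319 and 384 counts in WT 21 and WT 22 and 61 counts in the library labelled WT 23. Il6 was low in all Atg5 CD11cKO libraries, far from WT 21 and WT 22, and the library labelled WT 23 fell among the Atg5 CD11cKO values. The means were 2.31 ± 0.441 CPM in Atg5 CD11cKO (SD, n = 3) and 10.6 ± 1.02 CPM in WT 21 and WT 22 (SD, n = 2). Without the library labelled WT 23, the log2 fold change was -2.20 (SE 0.23, edgeR adjusted p = 2.4e-05). On the 6 libraries it was -1.74 (SE 0.59, edgeR adjusted p = 0.34).

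Lif encodes the cytokine that signals through LIF receptor and gp130 and lies on chromosome 11 (mm10, 4257557 to 4272514, plus strand). It had 1.76, 1.89 and 1.67 CPM in Atg5 CD11cKO 25, 26 and 27, against 3.73 and 3.82 CPM in WT 21 and WT 22 and 1.94 CPM in the library labelled WT 23. Behind them stood 53 to 62 counts in Atg5 CD11cKO libraries, 120 and 129 counts in WT 21 and WT 22 and 61 counts in the library labelled WT 23. Lif was the 1 gene of the 10 for which every library labelled WT, the doubted one included, had a higher CPM than every Atg5 CD11cKO library. The gap was slight, 1.94 CPM from 61 counts in the library labelled WT 23 against 1.89 CPM from 62 counts in Atg5 CD11cKO 26. It was 2.12-fold lower in Atg5 CD11cKO than in WT 21 and WT 22, a log2 fold change of -1.08 (SE 0.29, edgeR adjusted p = 0.016). That call was lost when Atg5 CD11cKO 27 (-1.03, edgeR adjusted p = 0.053) or WT 22 (-1.06, edgeR adjusted p = 0.051, with WT 21 as the only WT library) was also left out. With the 6 libraries the log2 fold change was -0.83 (SE 0.34, edgeR adjusted p = 0.35).

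Osm, which encodes oncostatin M, a cytokine of macrophages, neutrophils and T cells, changed the other way. It lies on chromosome 11 (mm10, 4236420 to 4241026, plus strand), 16530 bases from Lif. Its levels were 96.2, 99.6 and 103 CPM in Atg5 CD11cKO 25, 26 and 27, against 45.9 and 42.1 CPM in WT 21 and WT 22 and 99.1 CPM in the library labelled WT 23. Osm was closely grouped in the Atg5 CD11cKO libraries around 99.4 ± 3.18 CPM (SD, n = 3), above 44.0 ± 2.68 CPM in WT 21 and WT 22 (SD, n = 2). The log2 fold change was 1.18 (SE 0.07, edgeR adjusted p = 2.1e-07) without the library labelled WT 23 and 0.67 (SE 0.31, edgeR adjusted p = 0.35) on the 6 libraries. The neighbouring ligand genes Osm and Lif thus differed in opposite directions between the Atg5 CD11cKO libraries and WT 21 and WT 22. On the 6 libraries as labelled neither was called.

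The make-up of the ligand transcripts was compared after dividing CPM by exon length. Osm made up 96.5%, 97.0% and 97.5% of the summed Il6, Osm and Lif level in Atg5 CD11cKO 25, 26 and 27, against 80.3% and 76.9% in WT 21 and WT 22 and 97.2% in the library labelled WT 23. The share of Il6 was 2.62%, 2.03% and 1.71% in Atg5 CD11cKO libraries, against 16.3% and 19.4% in WT 21 and WT 22 and 1.78% in the library labelled WT 23. Oncostatin M was therefore the main ligand transcript of the 3 in every library, and the part taken by Il6 was smaller in the Atg5 CD11cKO libraries than in WT 21 and WT 22.

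Of the other IL-6 family ligands, 7 of 8 listed genes were in the table, 4 passed the filter on low counts and none was called by edgeR in either comparison. Without the library labelled WT 23, 2 of these reached an unadjusted p under 0.05 and 1, Clcf1, was called by DESeq2. In that comparison their median log2 fold change was 0.29, and with the 6 libraries 0.23. Ebi3, the shared subunit of IL-27 and IL-35, averaged 42.7 CPM in Atg5 CD11cKO and 41.7 CPM in WT 21 and WT 22 (log2 fold change 0.04, edgeR adjusted p = 0.77). Clcf1, a ligand of the CNTF receptor, averaged 12.0 CPM in Atg5 CD11cKO and 16.8 CPM in WT 21 and WT 22 (-0.48, edgeR adjusted p = 0.052). Il27, the other IL-27 subunit, averaged 3.55 CPM in Atg5 CD11cKO and 2.08 CPM in WT 21 and WT 22 (0.78, edgeR adjusted p = 0.079). Ctf1, which encodes cardiotrophin-1, averaged under 1 CPM in both (log2 fold change 0.53, edgeR adjusted p = 0.64).

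**Figure D2:**
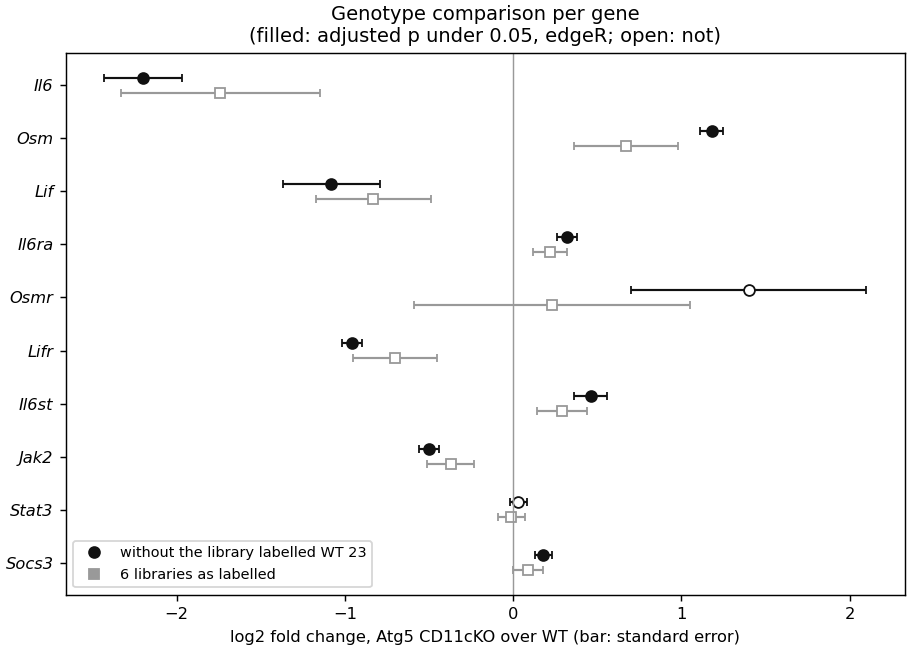
Log2 fold change of Atg5 CD11cKO over WT (x axis) for the 10 genes (rows), as black circles without the library labelled WT 23 and grey squares with the 6 libraries as labelled; bars are standard errors and filled symbols mark an edgeR adjusted p under 0.05. The filled symbols are 8 circles, with Il6 at -2.20 and Osm at 1.18 the farthest from 0, and no square is filled.

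Il6ra, the IL-6-binding receptor chain, is on chromosome 3 (mm10, 89864059 to 89913196, minus strand). It had 147, 149 and 141 CPM in Atg5 CD11cKO 25, 26 and 27, against 121 and 112 CPM in WT 21 and WT 22 and 141 CPM in the library labelled WT 23. All Atg5 CD11cKO libraries were above WT 21 and WT 22, by a smaller margin than for the ligands. Its log2 fold change was 0.32 (SE 0.06, edgeR adjusted p = 0.0012) without the library labelled WT 23 and 0.22 (SE 0.10, edgeR adjusted p = 0.35) on the 6 libraries. Il6ra shares 242 exon bases with the antisense gene Gm42809, which averaged 30.6 counts per library, and the sources do not state whether counting used strand.

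Lifr, the LIF receptor chain, is on chromosome 15 (mm10, 7090614 to 7197489, plus strand). Its levels were 53.8, 51.8 and 52.9 CPM in Atg5 CD11cKO 25, 26 and 27, against 105 and 103 CPM in WT 21 and WT 22 and 50.4 CPM in the library labelled WT 23. Lifr varied little among the Atg5 CD11cKO libraries and between WT 21 and WT 22, while the library labelled WT 23 was below all of them. The Atg5 CD11cKO libraries were 1.95-fold lower than WT 21 and WT 22. Between genotypes the log2 fold change was -0.96 (SE 0.06, edgeR adjusted p = 4.5e-07) without the library labelled WT 23 and -0.70 (SE 0.25, edgeR adjusted p = 0.34) on the 6 libraries. Transcripts of the LIF receptor and of its ligand were both lower in the Atg5 CD11cKO libraries than in WT 21 and WT 22. The part of other cell types in these differences was not tested.

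Osmr, the oncostatin M receptor chain, lies 215644 bases from Lifr on chromosome 15 (mm10, 6813577 to 6874969, minus strand) and was barely detected. It had 1.35, 1.01 and 1.42 CPM in Atg5 CD11cKO 25, 26 and 27, against 0.84 and 0.118 CPM in WT 21 and WT 22 and 2.26 CPM in the library labelled WT 23. These are 33 to 45 counts in Atg5 CD11cKO libraries, 27 and 4 counts in WT 21 and WT 22 and 71 counts in the library labelled WT 23. The WT libraries thus held both the lowest and the highest level. The log2 fold change was 1.40 (SE 0.70, edgeR adjusted p = 0.16) without the library labelled WT 23 and 0.23 (SE 0.82, edgeR adjusted p = 0.90) on the 6 libraries. It rested on single WT libraries: with WT 21 also left out, so that WT 22 with its 4 counts was the only WT library, it was 3.37 (edgeR adjusted p = 0.0092), and with WT 22 also left out 0.59 (edgeR adjusted p = 0.49).

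Il6st, which encodes gp130, is on chromosome 13 (mm10, 112464070 to 112510086, plus strand). It had 84.0, 80.3 and 77.7 CPM in Atg5 CD11cKO 25, 26 and 27, against 51.9 and 66.2 CPM in WT 21 and WT 22 and 79.3 CPM in the library labelled WT 23. Both WT 21 and WT 22 were below the Atg5 CD11cKO libraries, and they differed from each other more than the Atg5 CD11cKO libraries did. The edgeR log2 fold change was 0.46 (SE 0.10, edgeR adjusted p = 0.0041) without the library labelled WT 23 and 0.29 (SE 0.15, edgeR adjusted p = 0.37) on the 6 libraries. Its size depended on which of these was the only WT library: with WT 21 also left out it was 0.29 (edgeR adjusted p = 0.026), and with WT 22 also left out 0.65 (edgeR adjusted p = 0.00022).

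Among the 3 ligand-specific chains, with CPM divided by exon length, Il6ra made up 76.9%, 77.9% and 76.4% in Atg5 CD11cKO 25, 26 and 27, against 59.0% and 57.7% in WT 21 and WT 22 and 77.1% in the library labelled WT 23. Lifr made up 22.6%, 21.7% and 23.1% in Atg5 CD11cKO libraries, against 40.8% and 42.2% in WT 21 and WT 22 and 22.0% in the library labelled WT 23. Osmr stayed under 1% in every library. The IL-6-binding chain was the main one in all 6, with a larger part in Atg5 CD11cKO than in WT 21 and WT 22.

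Of the 4 other receptors of the family, 1 was higher in Atg5 CD11cKO than in WT 21 and WT 22 and 3 were not called, with a median log2 fold change of 0.85. The called gene was Il11ra1, the IL-11 receptor alpha chain, at 46.5 ± 2.94 CPM in Atg5 CD11cKO (SD, n = 3) and 28.3 ± 0.116 CPM in WT 21 and WT 22 (SD, n = 2; log2 fold change 0.72, edgeR adjusted p = 0.00014). Il27ra had a log2 fold change of -0.02, Il31ra 1.28 and Cntfr 0.97, none past the threshold. Of all genes tested in this comparison, 15.9% were called higher and 15.1% lower, which also stands beside the lists below. Membrane IL-6 receptor is cut from the cell surface by the proteases ADAM17 and ADAM10, and the released form carries IL-6 to cells without the receptor. Of the 4 genes of this shedding list, both proteases were called higher and the cofactors Rhbdf2 (-0.17) and Rhbdf1 (-0.44) were not called. Adam17 averaged 208 ± 3.18 CPM in Atg5 CD11cKO and 109 ± 1.37 CPM in WT 21 and WT 22, a log2 fold change of 0.95 (SE 0.05, edgeR adjusted p = 3.7e-08). Adam10 averaged 190 ± 7.40 CPM in Atg5 CD11cKO and 111 ± 3.21 CPM in WT 21 and WT 22, a log2 fold change of 0.77 (SE 0.05, edgeR adjusted p = 6.4e-07). The library labelled WT 23 had 207 CPM of Adam17 and 181 CPM of Adam10. On the 6 libraries the log2 fold change was 0.35 for Il11ra1 (edgeR adjusted p = 0.48), 0.56 for Adam17 (edgeR adjusted p = 0.35) and 0.50 for Adam10 (edgeR adjusted p = 0.34), and the list medians were 0.43 for the receptors and 0.17 for the shedding genes.

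Jak2, one of the JAK kinases at gp130, is on chromosome 19 (mm10, 29251828 to 29313080, plus strand). It had 221, 211 and 197 CPM in Atg5 CD11cKO 25, 26 and 27, against 315 and 281 CPM in WT 21 and WT 22 and 216 CPM in the library labelled WT 23. Jak2 was lower in each Atg5 CD11cKO library than in WT 21 and WT 22, and the library labelled WT 23 fell among the Atg5 CD11cKO values. The log2 fold change was -0.50 (SE 0.06, edgeR adjusted p = 6.6e-05) without the library labelled WT 23 and -0.37 (SE 0.14, edgeR adjusted p = 0.34) on the 6 libraries.

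Stat3, the transcription factor of the pathway, is on chromosome 11 (mm10, 100885098 to 100939540, minus strand). Its levels were 330, 315 and 312 CPM in Atg5 CD11cKO 25, 26 and 27, against 299 and 326 CPM in WT 21 and WT 22 and 339 CPM in the library labelled WT 23. It was the 1 gene of the 10 whose Atg5 CD11cKO range overlapped that of WT 21 and WT 22. The log2 fold change was 0.03 (SE 0.05, edgeR adjusted p = 0.64) without the library labelled WT 23 and -0.01 (SE 0.08, edgeR adjusted p = 0.95) on the 6 libraries. Stat3 shares 72 of its 9527 exon bases with Stat5a on the opposite strand. Transcript level says nothing of STAT3 phosphorylation, which was not measured in these files.

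Socs3, the feedback inhibitor that STAT3 induces, is also on chromosome 11 (mm10, 117966079 to 117970047, minus strand). It had 296, 284 and 293 CPM in Atg5 CD11cKO 25, 26 and 27, against 246 and 271 CPM in WT 21 and WT 22 and 302 CPM in the library labelled WT 23. The difference was the smallest of those called, 1.13-fold, with a log2 fold change of 0.18 (SE 0.05, edgeR adjusted p = 0.015) without the library labelled WT 23. With 1 WT library it was no longer called when WT 21 was also left out (0.11, edgeR adjusted p = 0.12) and was 0.25 (edgeR adjusted p = 0.003) when WT 22 was. On the 6 libraries the log2 fold change was 0.09 (SE 0.09, edgeR adjusted p = 0.62).

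Among the 9 other JAK and STAT genes, 3 were higher and 2 lower in Atg5 CD11cKO than in WT 21 and WT 22, with a median log2 fold change of -0.10. Stat6, the factor downstream of IL-4 and IL-13, averaged 344 ± 9.33 CPM in Atg5 CD11cKO and 225 ± 4.90 CPM in WT 21 and WT 22 (log2 fold change 0.62, edgeR adjusted p = 5.1e-07). The kinases Jak1 (0.07) and Tyk2 (-0.10) were not called. With CPM divided by exon length, Jak2 made up 31.8%, 33.0% and 31.1% of the summed JAK level in Atg5 CD11cKO 25, 26 and 27, against 41.3% and 37.6% in WT 21 and WT 22 and 33.0% in the library labelled WT 23. Jak1 had the largest share in Atg5 CD11cKO libraries (37.3% to 38.9%), against 30.5% and 32.8% in WT 21 and WT 22, where Jak2 had the largest. Stat3 made up 13% to 13.9% of the summed STAT level in Atg5 CD11cKO libraries, against 13.2% and 14.0% in WT 21 and WT 22.

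Other inhibitors of JAK-STAT signalling numbered 17, of which 5 were higher, 2 lower and 10 not called without the library labelled WT 23, with a median log2 fold change of 0.10. Ptpn6, which encodes the phosphatase SHP-1, averaged 775 ± 10.8 CPM in Atg5 CD11cKO and 484 ± 17.9 CPM in WT 21 and WT 22 (log2 fold change 0.69, edgeR adjusted p = 3.1e-08). Ptprc, the phosphatase CD45, was called at 0.09 (edgeR adjusted p = 0.023), and Sh2b3, an adaptor that restrains JAK2, was called lower at -0.23 (edgeR adjusted p = 0.0036). Ptpn1, a phosphatase of JAK kinases, had 0.02 (edgeR adjusted p = 0.83). On the 6 libraries the log2 fold change was 0.40 for Stat6 (edgeR adjusted p = 0.34), 0.42 for Ptpn6 (edgeR adjusted p = 0.35), 0.05 for Ptprc (edgeR adjusted p = 0.73) and -0.15 for Sh2b3 (edgeR adjusted p = 0.47), and the medians were -0.08 for the JAK and STAT genes and 0.05 for the inhibitors.

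Interleukin-10 also signals through STAT3, and both of its receptor chains were higher in Atg5 CD11cKO than in WT 21 and WT 22. Il10ra averaged 441 ± 8.11 CPM in Atg5 CD11cKO and 313 ± 0.734 CPM in WT 21 and WT 22 (log2 fold change 0.50, edgeR adjusted p = 8.2e-07). Il10rb averaged 185 ± 4.58 CPM in Atg5 CD11cKO and 110 ± 2.98 CPM in WT 21 and WT 22 (0.75, edgeR adjusted p = 5.4e-07). The ligand Il10 averaged 5.24 ± 0.410 CPM in Atg5 CD11cKO and 6.59 ± 0.476 CPM in WT 21 and WT 22 (-0.32, edgeR adjusted p = 0.28). With all 6 libraries Il10ra had 0.35 (edgeR adjusted p = 0.34), Il10rb 0.44 (edgeR adjusted p = 0.35) and Il10 -0.24 (edgeR adjusted p = 0.53). The median of the 3 genes was 0.50 without the library labelled WT 23 and 0.35 with the 6 libraries.

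Of 20 known STAT3 target genes, 14 were higher, 3 lower and 3 not called without the library labelled WT 23, with a median log2 fold change of 0.41. Fos, a subunit of AP-1, averaged 4630 ± 28.9 CPM in Atg5 CD11cKO and 3060 ± 57.5 CPM in WT 21 and WT 22 (log2 fold change 0.60, edgeR adjusted p = 3.9e-10). Mcl1, which protects cells from apoptosis, averaged 996 ± 10.0 CPM in Atg5 CD11cKO and 744 ± 27.2 CPM in WT 21 and WT 22 (0.43, edgeR adjusted p = 8.8e-07). Tnfaip3, the NF-kappaB inhibitor A20, averaged 914 ± 20.8 CPM in Atg5 CD11cKO and 665 ± 29.7 CPM in WT 21 and WT 22 (0.46, edgeR adjusted p = 1.3e-06). Junb, another AP-1 subunit, was called at 0.14 (edgeR adjusted p = 2e-04). With all 6 libraries the log2 fold change was 0.38 for Fos (edgeR adjusted p = 0.35), 0.29 for Mcl1 (edgeR adjusted p = 0.34), 0.27 for Tnfaip3 (edgeR adjusted p = 0.37) and 0.11 for Junb (edgeR adjusted p = 0.41), and the median was 0.26.

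The list of hepatocyte acute-phase genes, many of which IL-6 induces through STAT3, held 20 genes. Without the library labelled WT 23, 12 were lower and 8 not called, with a median log2 fold change of -1.88. Hp, which encodes haptoglobin, averaged 35.4 ± 1.57 CPM in Atg5 CD11cKO and 118 ± 5.10 CPM in WT 21 and WT 22 (log2 fold change -1.73, edgeR adjusted p = 7.4e-09). The fibrinogen chains Fgb (-2.79) and Fga (-2.36) and the haem carrier Hpx (-2.90) were also called lower, each with an edgeR adjusted p of 2.5e-09 or below. Hepatocyte markers moved with this list: 18 of 20 were called lower and none higher, with a median log2 fold change of -2.36. Their sum, of which Trf with 679 CPM in Atg5 CD11cKO and 704 CPM in WT 21 and WT 22 (-0.05, edgeR adjusted p = 0.26) was a large part, was 1110 to 1120 CPM in Atg5 CD11cKO libraries, against 2790 to 2830 CPM in WT 21 and WT 22 and 1080 CPM in the library labelled WT 23. The part of hepatocyte RNA in these values was not tested. With all 6 libraries Hp had -1.36, Fgb -2.32, Fga -1.91 and Hpx -2.41, each with an edgeR adjusted p of 0.34, and the median of the 19 tested was -1.59.

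Across the 8 related lists, edgeR called none of the 80 genes tested on the 6 libraries as labelled. An unadjusted p under 0.05 was reached by 27 of them, beside 14.4% of all genes tested. DESeq2 called 4, all from the acute-phase list, beside 1.95% of all genes tested.

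**Figure D3:**
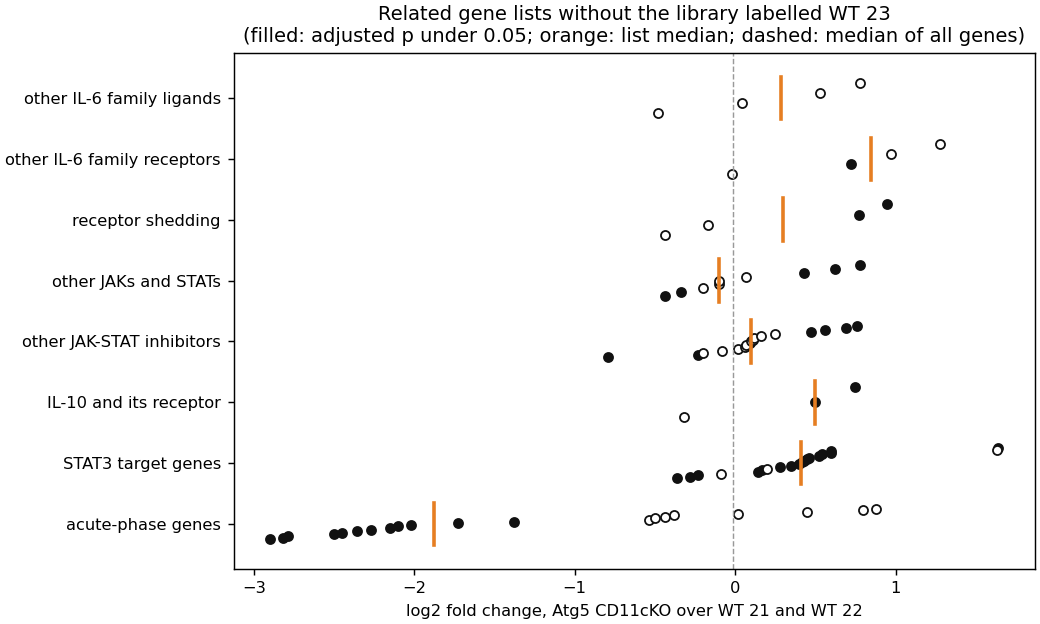
Log2 fold change of Atg5 CD11cKO over WT 21 and WT 22 (x axis) for each tested gene of the 8 related lists (rows), without the library labelled WT 23; filled points have an edgeR adjusted p under 0.05, orange bars are list medians and the dashed line is the median of all genes tested. The acute-phase genes lie farthest to the left, with a median of -1.88, and 14 of 20 STAT3 target genes are filled to the right of the line.

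Levels between the 10 genes were compared as CPM per kilobase of exon. In the Atg5 CD11cKO libraries Socs3 was highest at 101 ± 2.07 (SD, n = 3, here and for the genes that follow). Osm at 43.8 ± 1.40 and Jak2 at 41.7 ± 2.41 came next and did not differ beyond their spread. Stat3 followed at 33.5 ± 0.991. Below them were Il6ra at 16.9 ± 0.524, Il6st at 7.27 ± 0.287 and Lifr at 4.90 ± 0.0923, while Il6 at 0.953 ± 0.182, Lif at 0.408 ± 0.0263 and Osmr at 0.104 ± 0.018 were lowest. In WT 21 and WT 22 the order of the means was Socs3, Jak2, Stat3, Osm, Il6ra, Lifr, Il6st, Il6, Lif and Osmr, so that Osm stood below Stat3 at 19.4 and Lifr, at 9.61, stood above Il6st, at 5.32. By the mean over all 6 libraries, Socs3 ranked 551 of the 17483 genes ranked on this scale and Osmr 16905.

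Markers of other cells moved with the same split of libraries, and the calls given for them are those without the library labelled WT 23. On the 6 libraries as labelled, edgeR called 0 of the 166 marker genes tested in the 15 lists. An unadjusted p under 0.05 was reached by 91, beside 14.4% of all genes tested. DESeq2 called 34, 17 of them acinar, beside 1.95% of all genes tested. Without the library labelled WT 23, edgeR called 31.0% of all genes tested, 15.9% higher and 15.1% lower. Summed pancreatic acinar markers were 493 to 516 CPM in Atg5 CD11cKO libraries, against 25100 and 25700 CPM in WT 22 and WT 21 and 479 CPM in the library labelled WT 23, and all 17 tested were called lower. Natural killer cell and ILC1 markers summed to 385 to 400 CPM in Atg5 CD11cKO, against 1280 to 1330 CPM in WT 21 and WT 22 (6 of 10 lower, 4 not called). Gzmb was a large part of that sum, with 113 CPM in Atg5 CD11cKO and 677 CPM in WT 21 and WT 22. Gzma had 71.4 and 306 CPM in the same groups, and the median log2 fold change of this list was only -0.31. T cell markers summed to 175 to 187 CPM in Atg5 CD11cKO, against 378 to 386 CPM in WT 21 and WT 22 (8 of 12 lower). Plasmacytoid dendritic cell markers summed to 848 to 858 CPM, against 1860 to 1890 CPM (9 of 9 lower). Kupffer cell markers summed to 1750 to 1760 CPM in Atg5 CD11cKO and 2390 to 2400 CPM in WT 21 and WT 22, with 2 of 10 higher and 8 lower. Conventional dendritic cell markers summed to 3810 to 3940 CPM in Atg5 CD11cKO and 4730 to 4830 CPM in WT 21 and WT 22, with 4 of 12 higher and 8 lower.

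Higher in Atg5 CD11cKO were the summed markers of lipid-associated macrophages, at 7520 to 7540 CPM against 1920 to 1940 CPM in WT 21 and WT 22 (10 of 10 called higher), and of mature migratory dendritic cells, at 1510 CPM against 710 to 746 CPM (7 of 8 higher). Sinusoidal endothelial markers summed to 623 to 646 CPM in Atg5 CD11cKO and 500 CPM in WT 21 and WT 22 (8 of 13 higher, 3 lower). Fcgr2b was a large part of this sum, with 305 CPM in Atg5 CD11cKO and 164 CPM in WT 21 and WT 22. The 3 called lower were Dnase1l3 (log2 fold change -0.91), Pecam1 (-0.58) and Cdh5 (-0.84), so the endothelial list did not move in 1 direction. Stellate cell and fibroblast markers summed to 67.1 to 71.4 CPM and 31.2 to 34.0 CPM in the same groups (5 of 13 higher). A large part of that sum was Ecm1, with 40.5 CPM in Atg5 CD11cKO and 22.2 CPM in WT 21 and WT 22. Neutrophil markers summed to 92.2 to 96.9 CPM in Atg5 CD11cKO and 121 to 128 CPM in WT 21 and WT 22 (1 of 9 higher, 4 lower). Monocyte markers summed to 2410 to 2500 CPM and 2240 to 2290 CPM in the same groups (5 of 9 higher, 3 lower), and B cell markers overlapped. No listed marker was at 0 in all libraries. Markers of the CD11c+ fraction itself summed to 60600 to 62700 CPM in Atg5 CD11cKO and 57000 to 57900 CPM in WT 21 and WT 22. The part of these cells in the differences of the 10 genes was not tested, and in bulk RNA fewer cells of a type and less RNA per cell cannot be told apart.

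**Figure D4:**
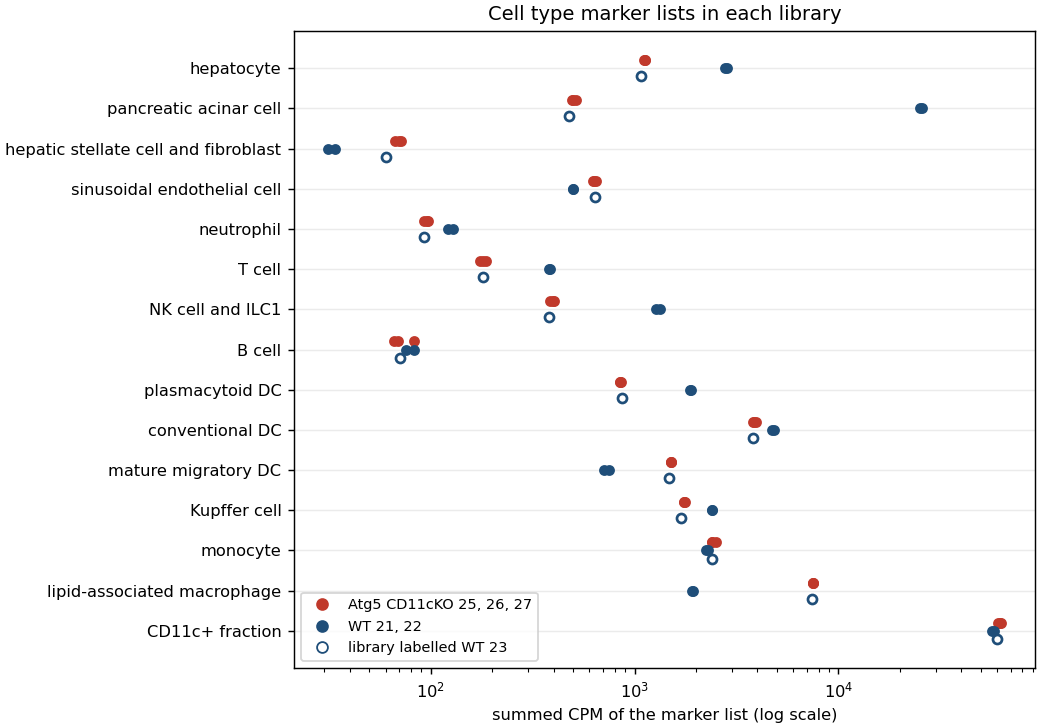
Summed CPM (x axis, log scale) of 15 cell type marker lists (rows) in each library: red points for Atg5 CD11cKO 25, 26 and 27, filled blue points for WT 21 and WT 22 and an open blue point for the library labelled WT 23. The widest separation is in pancreatic acinar markers, 493 to 516 CPM in Atg5 CD11cKO against 25100 to 25700 CPM in WT 21 and WT 22, and the open point lies beside the red points in nearly all lists.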

How the data were processed

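RNA-seq was made from hepatic CD11c+ cells with 10 ng of input RNA per library. The authors deposited a table of estimated counts per gene, and the submitters' notes name STAR 2.5.3a, bcl2fastq 2.17.1.14, Partek and the build mm10. Which tool counted reads, with which annotation and whether by strand, is not given in the sources used. Of the values, 32.9% are whole within 1e-06. A second deposited table holds a normalized signal for 20388 genes, each value being the estimated count plus 1 times 1 factor per library, and served only as an alternative. No column of another series was found.

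Estimated counts were rounded and tested with the quasi-likelihood test of edgeR 4.0.16 in R 4.3.3 (TMM scaling, filterByExpr, Benjamini-Hochberg adjustment over all genes tested, threshold 0.05), a positive log2 fold change meaning higher in Atg5 CD11cKO. SE is the absolute log2 fold change over the square root of F. CPM use TMM-scaled library totals (factors 0.9847 to 1.013). Total counts of 31064570 to 34034675 per library set the counting precision, which is poorest for Osmr. Alternatives were DESeq2 1.42.0, limma 3.58.1 (voom, and log2 of the signal plus 1 or 0.1), other scalings, other filters and leaving out each library. The edgeR fit of both comparisons was tested on simulated data with known changes. Gene positions and exon lengths come from GENCODE vM21, which matched 31400 genes. Values are given in full for the 10 genes, and in each related list the 4 detected genes with the highest mean CPM are named, except 1 that is not reported here. The genes and lists were chosen with earlier results of these data known.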

Additional observations from a re-analysis of the deposited data

How the results depend on the processing

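With the 6 libraries as labelled, none of the 10 genes was called under 13 of 14 alternatives, and 8 were called without WT 23 (range over left-out libraries 0 to 8). The count over all genes was 0 in edgeR, 342 in DESeq2 (37 higher and 305 lower, none of the 10 among them), and 0 to 5655 over left-out libraries. Of 140 values, 4 changed sign, all with a library left out: Osmr to -0.30 without WT 22 (range -0.301 to 1.397 over left-out libraries), and Stat3 without WT 23, Atg5 CD11cKO 26 or Atg5 CD11cKO 27 (range -0.062 to 0.034). Without the library labelled WT 23, 125 of 130 values kept their direction and their side of the threshold over 13 alternatives. Lif (without WT 22 or Atg5 CD11cKO 27) and Socs3 (without WT 21) lost their calls, Osmr was called without WT 21, and Stat3 changed sign without WT 21 (-0.026, range -0.026 to 0.103 over left-out libraries). There, 7 to 8 of the 10 genes were called under every alternative, and 4523 to 5826 genes in all. The adjusted p of Lif ranged from 0.013 to 0.053, that of Socs3 from 0.0025 to 0.12 and that of Il6 from 1e-13 to 0.00034 over the alternatives. The cause of these shifts was not tested, beyond the fewer libraries that a left-out library leaves (1 in WT where WT 21 or WT 22 is left out as well). No paired analysis was possible because the replicate numbers of the groups are not shared (21 to 23 and 25 to 27). Il6, Lif and Osmr rest on the fewest counts, and Osmr in WT 22 on 4.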
